A study of Mus musculus with 5 samples.

Results

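Mouse epiblast stem cells (EpiSCs) that had been given bone morphogenetic protein 4 (BMP-4) for 24 h were compared with such cells given it for 1.5 h, to describe the late against the early response. Both libraries carried the ligand, and each group held 1 library. Of 23951 genes in the deposited table, 10641 entered the comparison. To enter, a gene had to average 1 FPKM or more (fragments per kilobase of transcript, scaled to the mapped fragments of the library, a level per length) over both libraries, carry the status OK in each, and have a name outside the small RNA families (Mir, Snor, Scarna, Rnu and Rny). Plxnc1 (0.861 FPKM at 1.5 h and 1.14 at 24 h) and Fez1 (1.17 and 0.835) lay just inside that mean, and Fam132b (0.645 and 1.35) and Nkapl (0.944 and 1.05) just outside it.

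The series set the naive state of pluripotency, in E14 mouse embryonic stem cells (ESCs), beside the primed state, in EpiSCs derived from such ESCs. The EpiSCs of all groups grew in N2B27 medium with FGF2 at 12 ng/ml and Activin A at 20 ng/ml, on plates coated with fetal bovine serum. The treated cultures also received 10 ng/ml of BMP-4, over either 1.5 h or 24 h, and a library of untreated EpiSCs was part of the series. Poly(A) RNA was sequenced from directional libraries. The cells come from a single ESC line and were made in culture, not taken from an embryo, and the sources used here do not say whether the cultures were collected at the same time. Time with BMP-4 and any other difference between these libraries cannot be told apart, and no p-value or spread between cultures can be given.

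BMP ligands bind receptor kinases that phosphorylate Smad1, Smad5 and Smad8, and these enter the nucleus with Smad4 and switch on targets such as the Id genes. In the mouse embryo, BMP-4 from the extraembryonic ectoderm acts on the posterior epiblast, where Wnt3 and Nodal also act and the primitive streak forms. The posterior streak gives rise to extraembryonic and other mesoderm and lies near the first germ cells, while the anterior streak, with strong Nodal signalling, gives rise to the organizer and the definitive endoderm.

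Depth, read from the steps of low values, was approximately 11.0 M reads (M, the mega prefix) at 1.5 h, 13.4 M at 24 h and 9.88 M in the untreated library. The labelled cell type was checked against 8 EpiSC markers (Pou5f1, Sox2, Fgf5, Otx2, Dnmt3b, Cdh2, Lin28b and Utf1). All 8 of 8 reached 1 FPKM in each EpiSC library, with summed levels of 2012 FPKM untreated, 1949 at 1.5 h and 1691 at 24 h. Naive ESC markers summed to 4.48 FPKM at 1.5 h and 6.66 at 24 h, against 2580 and 2766 in the ESC libraries, and Nr0b1 was listed at 0 in the EpiSC libraries.

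Few genes stood apart between 1.5 h and 24 h. Differences are on the log2(FPKM + 1) scale, 24 h minus 1.5 h, a scale that shrinks the differences of low genes, and a fold is the ratio of FPKM + 1. At 24 h 55 of 10641 genes (0.517%) stood at least 2-fold higher and 32 (0.301%) at least 2-fold lower, 87 in all (0.818%), while 10554 lay within 2-fold. A difference of at least 1.5-fold was present in 197 genes on the higher side (1.85%) and 145 on the lower side (1.36%). The median difference over all genes compared was 0.00, and the central 90% lay between -0.33 and 0.36. In a bulk library, fewer cells of a type and less RNA per cell cannot be told apart, so a level may differ in either way. Nt5e (1.004) and Eras (-1.004) lay just inside the 2-fold limit, and Piezo2 (0.99), Fgf17 (0.99), Notum (0.99) and Cxcr4 (-0.99) just outside it.

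**Figure D1:**
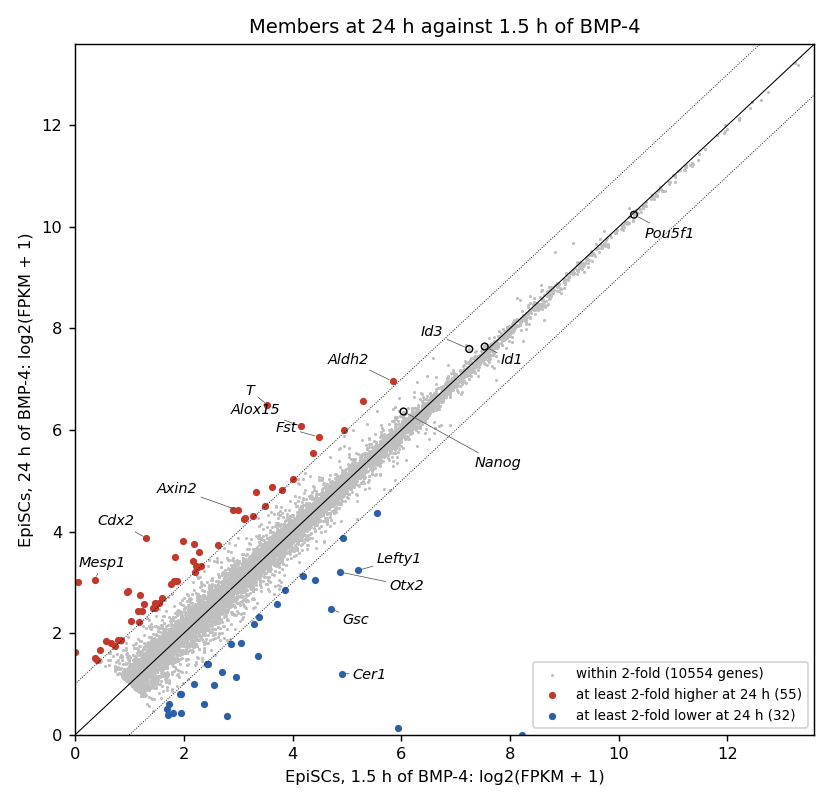
Each point is a gene of the comparison, with log2(FPKM + 1) at 1.5 h on the x axis and at 24 h on the y axis; dotted lines mark 2-fold. The 55 higher genes include T, Cdx2 and Mesp1, the 32 lower genes include Cer1, Gsc and Otx2, and Id1, Id3, Nanog and Pou5f1 (open circles) lie within 2-fold.

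A stricter mark is that the deposited 95% intervals of both values do not overlap. Only 6 genes were apart by that mark (0.0564% of all compared), 4 higher (0.0376%) and 2 lower (0.0188%). T, Cdx2, Alox15 and the pseudogene Pisd-ps1 were higher, and Cer1 and Eif3j1 were lower. Pisd-ps1 and Eif3j1 each share a locus with a near copy that stood the other way, described further on. These intervals describe the estimate within a library and are no measured spread between cultures.

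The gene set with the most higher members was that of the posterior streak and early mesoderm. Of 35 listed genes 17 were in the comparison, and 8 of these 17 stood at least 2-fold higher at 24 h and 0 lower. Their median difference was 0.99, beside 0.00 over all genes, and 16 of 17 lay above 0. The list and its members were chosen with earlier results of these data known, so the count is a description. Of the 17, 3 were under 1 FPKM in 1 library and entered only through the other. Mesp1 and Evx1 entered through the 24 h library and Tbx20 through the 1.5 h library, so their directions are tied to their entry.

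T (Brachyury), the T-box transcription factor that marks the primitive streak and nascent mesoderm, lies at mm9 chromosome 17, 8627288 to 8635361. It stood at 11.9 FPKM in untreated EpiSCs, at 10.6 (2.14 to 19.1, the deposited interval) at 1.5 h and at 89.2 (44.4 to 134) at 24 h. The 24 h library stood apart from the others, with a difference of 2.96, or 7.77-fold. Cdx2, a caudal-type homeobox factor of the posterior embryo and of the trophectoderm (chromosome 5, 148112476 to 148118825), stood at 1.55, 1.48 (0 to 3.47) and 13.7 (3.62 to 23.7) FPKM in the same order. That is a difference of 2.57, again with the untreated and the 1.5 h libraries close together.

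Mesp1, a bHLH factor of the earliest mesoderm (chromosome 7, 86937127 to 86938476), had a listed value of 0 in the untreated library, 0.291 FPKM at 1.5 h and 7.32 at 24 h. These levels correspond to approximately 4.09 and 125 reads, and the intervals (0 to 0.925 and 0 to 15.6) overlap. Its difference of 2.69 was the second of the list in size. Evx1, a homeobox gene of the posterior streak (chromosome 6, 52258383 to 52268372), stood at 0.246, 0.945 and 6.01 FPKM in untreated cells, at 1.5 h and at 24 h. The non-coding gene 5730457N03Rik, annotated over the same span, stood at 0.416, 0.962 and 6.15 FPKM, and the sources used here do not say how reads were divided between both.

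The upstream sequences of 6 of the 8 higher posterior genes are shown because the genes stood higher together at 24 h. Those of Wnt8a and Rspo3 are not shown. Each is the 250 bases before a RefSeq start, 5′ to 3′ on the gene's strand, from build GRCm38.p6, which is not the mm9 build of the expression table. Capitals mark the letters searched for on both strands. For TCF/LEF factors these were CTTTGAT, read on the other strand as ATCAAAG, as well as CTTTGTT, read on the other strand as AACAAAG. For Cdx factors they were TTTATGG, read on the other strand as CCATAAA. In Evx1 the capitals are letters linked to Smads, spelled out after the sequences. T lies at chr17:8434173-8434422 on the plus strand, Mesp1 at chr7:79793591-79793840 on the minus strand, Sp5 at chr2:70474673-70474922 on the plus strand, Wnt5b at chr6:119449387-119449636 on the minus strand, Cdx2 at chr5:147307250-147307499 on the minus strand and Evx1 at chr6:52313248-52313497 on the plus strand. Wnt5b has 3 RefSeq starts, and the start shown is the one with TCF/LEF letters. The first bases after each start were searched for in the opening line of transcripts from GENCODE, a second gene catalogue. Of the genes shown only Mesp1 had no match, so its start and distances are less certain. Among the promoters of compared genes that were checked, 6965 of 10404 had a match.
T: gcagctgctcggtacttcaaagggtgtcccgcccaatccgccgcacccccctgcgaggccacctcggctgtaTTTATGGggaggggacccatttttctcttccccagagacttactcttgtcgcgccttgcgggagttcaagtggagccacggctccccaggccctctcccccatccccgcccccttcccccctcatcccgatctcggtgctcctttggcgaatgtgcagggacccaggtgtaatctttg
Mesp1: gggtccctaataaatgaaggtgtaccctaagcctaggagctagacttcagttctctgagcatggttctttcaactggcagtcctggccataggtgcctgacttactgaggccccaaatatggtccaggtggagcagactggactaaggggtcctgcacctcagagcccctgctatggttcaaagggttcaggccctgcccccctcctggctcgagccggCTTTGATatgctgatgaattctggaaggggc
Sp5: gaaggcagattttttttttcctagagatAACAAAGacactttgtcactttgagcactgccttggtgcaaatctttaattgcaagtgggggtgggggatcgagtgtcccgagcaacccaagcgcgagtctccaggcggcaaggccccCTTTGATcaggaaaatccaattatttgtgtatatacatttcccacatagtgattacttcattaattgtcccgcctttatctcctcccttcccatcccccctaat
Wnt5b: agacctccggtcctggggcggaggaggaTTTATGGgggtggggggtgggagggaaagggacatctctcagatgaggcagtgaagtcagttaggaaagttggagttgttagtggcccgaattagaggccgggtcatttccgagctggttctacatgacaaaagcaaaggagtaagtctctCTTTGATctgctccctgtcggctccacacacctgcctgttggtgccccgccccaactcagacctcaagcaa
Cdx2: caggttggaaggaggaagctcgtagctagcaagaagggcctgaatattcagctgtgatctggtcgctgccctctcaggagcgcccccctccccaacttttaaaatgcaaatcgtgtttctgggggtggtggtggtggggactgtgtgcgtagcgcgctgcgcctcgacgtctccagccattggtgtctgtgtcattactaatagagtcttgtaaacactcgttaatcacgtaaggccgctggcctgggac
Evx1: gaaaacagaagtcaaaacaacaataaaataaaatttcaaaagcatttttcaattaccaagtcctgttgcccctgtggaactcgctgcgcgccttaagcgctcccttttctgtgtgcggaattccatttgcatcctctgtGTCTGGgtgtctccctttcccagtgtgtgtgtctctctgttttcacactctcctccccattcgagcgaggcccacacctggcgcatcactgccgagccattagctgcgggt

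The T sequence held TTTATGG from 178 to 172 bases before the start, and no TCF/LEF letters. Sp5 held CTTTGAT 104 to 98 bases before its start and AACAAAG 222 to 216 before it. Wnt5b held CTTTGAT at 71 to 65 and TTTATGG at 222 to 216, Mesp1 held CTTTGAT at 31 to 25, and Cdx2 and Evx1 held no TCF/LEF or Cdx letters in the window. Of the higher genes, 35 of 55 had a RefSeq sequence of this kind, and 6 of those 35 (17.1%) held TCF/LEF letters, beside 6.48% of the 8119 compared genes with a sequence, 9.52% of 21 lower genes and 9.21% of all 27025 genes with one. The 6 were Apln, Mesp1, Nrp2, Sp5, Tmem176b and Wnt5b. Cdx letters stood before 3 of 35 higher genes (8.57%; Igf2, T and Wnt5b), beside 1.72% of compared genes, 0 of 21 lower genes and 2.83% of all genes. Letters linked to Smads (GGCGCC, or GTCTGG and its complement CCAGAC) stood before 28.6% of higher and 23.8% of lower genes, beside 34.4% of those compared and 25.8% of all. T-box letters (AGGTGTGA and its complement TCACACCT) stood before 0 of 35 higher genes and 1 of 21 lower genes (4.76%; Samd3), beside 0.751% of compared genes and 1.3% of all. A gene with several starts was counted once if any start held the letters, so such genes had more letters searched. A match is a string of letters and not a site, and a window without it says nothing about the factor.

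Among the secreted ligands of the streak list, Wnt5b (chromosome 6, 119382549 to 119494365), a ligand of the non-canonical Wnt branch, stood at 3.50, 2.97 and 13 FPKM in untreated cells, at 1.5 h and at 24 h, a difference of 1.82 between the treated libraries. Its locus span also holds Fbxl14, which stood at 17.3 and 24.1 FPKM. Wnt8a, a ligand of the streak, stood at 8.66 and 18.7 FPKM (1.03), and Rspo3, an R-spondin that amplifies Wnt signals, at 1.69 and 4.64 (1.07). For these ligands the untreated level was within 2 FPKM of the 1.5 h level, and the 24 h level was the highest. Wnt3, the ligand needed for streak formation, stood at 12.6, 18.0 and 23.9 FPKM and lay within 2-fold between 1.5 h and 24 h (0.39). Fgf8, an FGF ligand of the streak, was at 61.4 and 82.0 FPKM (0.41), and Fgf17 at 2.27 and 5.51 (0.99).

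The T-box factor Eomes, needed for mesoderm and endoderm, stood at 19.7 FPKM at 1.5 h and 28.7 at 24 h (0.52), and the homeobox gene Mixl1 at 1.62 and 3.52 (0.79). Both lay within 2-fold, as did Lef1, a partner of beta-catenin, at 6.15 and 9.82 (0.60), and Nkx1-2, a gene of the posterior epiblast, at 2.08 and 4.08 (0.72). Tbx20 was the listed gene below 0, at 1.38 and 0.901 FPKM (-0.32). The other 18 of 35 genes were under the mean of 1 FPKM, and at 24 h they ranged from listed at 0 (Cdx4) to 1.57 FPKM (Sp8). They include Snai1, a repressor of Cdh1, at 0.488 and 1.3 FPKM, the paraxial mesoderm gene Msgn1, listed at 0 at 1.5 h and at 0.386 at 24 h, and Tbx6, listed at 0 and at 0.183. None of the 41 listed Hox genes reached the mean, and Hoxd1 was the highest at 24 h (0.610 FPKM at 1.5 h, 1.25 at 24 h).

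The wider Wnt list showed some higher targets and a lower antagonist, with 16 of 27 members above 0 and 11 below. Of 27 members 5 stood at least 2-fold higher (T, Wnt5b, Sp5, Axin2 and Wnt8a) and 1 lower (Sfrp1), with a median of 0.11, and T, Wnt5b, Sp5 and Wnt8a are on the streak list as well. Axin2, a feedback inhibitor induced by canonical Wnt signals (chromosome 11, 108781663 to 108812095), stood at 7.31 FPKM untreated, 6.99 (1.83 to 12.2) at 1.5 h and 20.4 (8.74 to 32.1) at 24 h, a difference of 1.42. Sp5, a zinc finger factor that is a direct Wnt target (chromosome 2, 70312980 to 70315783), stood at 9.25, 6.45 and 20.6 FPKM (1.53). Both genes stood no higher at 1.5 h than without ligand and highest at 24 h, with overlapping intervals. Other feedback genes lay within 2-fold, on both sides of 0. Notum, an extracellular Wnt deacylase, stood at 0.371 and 1.72 FPKM at 1.5 h and 24 h (0.99), Nkd1 at 2.83 and 5.01 (0.65), its paralog Nkd2 at 1.65 and 0.917 (-0.46) and Znrf3, which removes Wnt receptors, at 1.24 and 1.25 (0.01).

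Wnt receptors and antagonists did not share a direction. The R-spondin receptor gene Lgr5, under the mean, stood at 0.989 FPKM at 1.5 h and 0.184 at 24 h. Among the receptors, Fzd10 stood at 16.1 FPKM at 1.5 h and 31.8 at 24 h (0.94), while Fzd7 was at 13.4 and 7.85 (-0.70), Fzd8 at 1.66 and 0.639 (-0.70), Fzd2 at 5.16 and 3.58 (-0.43) and Fzd5 at 4.17 and 3.07 (-0.35). Sfrp1, a secreted Wnt antagonist (chromosome 8, 24521974 to 24560104), stood at 21.2, 20.2 (8.67 to 31.7) and 7.23 (2.09 to 12.4) FPKM in untreated cells, at 1.5 h and at 24 h, a difference of -1.36. Dkk1, an antagonist that binds the Lrp co-receptors, was at 1.70 and 0.375 FPKM (-0.97). Dact1, an intracellular modulator of the pathway that is on no list, stood at 4.91 and 0.963 FPKM (-1.59).

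Genes of the anterior streak, the organizer and the endoderm stood lower at 24 h. Of 27 listed genes 20 were in the comparison, 7 of these 20 stood at least 2-fold lower and 0 higher, and the median was -0.88. Only Frzb, a secreted Wnt antagonist, lay above 0 (2.94 and 4.87 FPKM, 0.57), so 19 of 20 lay below. As with the posterior list, the genes were chosen with earlier results known. Of the 20, 3 (Chrd, Dkk1 and Fzd8) were under 1 FPKM at 24 h and entered only through the 1.5 h library. These 3 are not among the 7.

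Cer1, a secreted antagonist of Nodal and BMP (chromosome 4, 82527655 to 82531055), had the lowest difference of the list. It stood at 35 FPKM untreated, at 29.1 (10.1 to 48.0) at 1.5 h and at 1.31 (0 to 3.10) at 24 h, a difference of -3.70. Gsc (Goosecoid), the homeobox gene of the organizer (chromosome 12, 105709419 to 105711446), stood at 36.0, 25.3 (6.4 to 44.1) and 4.58 (0 to 9.88) FPKM, a difference of -2.23. In both genes the 24 h library was the low one, and for Gsc the intervals overlap.

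Lefty1, a Nodal antagonist and Nodal target (chromosome 1, 182865170 to 182868532), stood at 69.9 FPKM untreated, 35.7 (13.1 to 58.4) at 1.5 h and 8.42 (0.916 to 15.9) at 24 h, with a difference of -1.96 between the treated libraries. Here the levels of the libraries descend with time from the untreated one. Otx2, a homeobox factor of the primed epiblast and the anterior embryo (chromosome 14, 49277352 to 49287319), stood at 30.1, 28.4 and 8.21 FPKM (-1.68), with the untreated and 1.5 h libraries close together. Lhx1, a LIM homeobox gene of the organizer, stood at 13.2, 8.76 and 3.53 FPKM (-1.11). Trh, which encodes a hormone precursor and marks the node region, stood at 10.6, 9.30 and 1.94 FPKM (-1.81).

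The endoderm genes on this list lay within 2-fold. Foxa2, a forkhead factor of endoderm and organizer, stood at 13.2 FPKM untreated, 4.06 at 1.5 h and 1.86 at 24 h (-0.83), so most of its distance from the untreated level was already present at 1.5 h. Sox17, which specifies endoderm, was at 3.72 and 1.87 FPKM (-0.72), Hhex at 16.3 and 9.64 (-0.70), and the chemokine receptor Cxcr4 at 4.92 and 1.98 (-0.99). Chrd (Chordin), a BMP antagonist of the organizer, stood at 2.46 and 0.811 FPKM (-0.93), and Cyp26a1, which degrades retinoic acid, at 7.38 and 3.82 (-0.80). Gata6 (-0.46), Gata4 (-0.19) and Foxa1 (-0.19) were closer to 0. The definitive endoderm markers Sox17, Foxa2, Cxcr4 and Hhex, which are among these genes, all reached 1 FPKM in each EpiSC library and summed to 39.0 FPKM untreated, 29.0 at 1.5 h and 15.4 at 24 h.

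**Figure D2:**
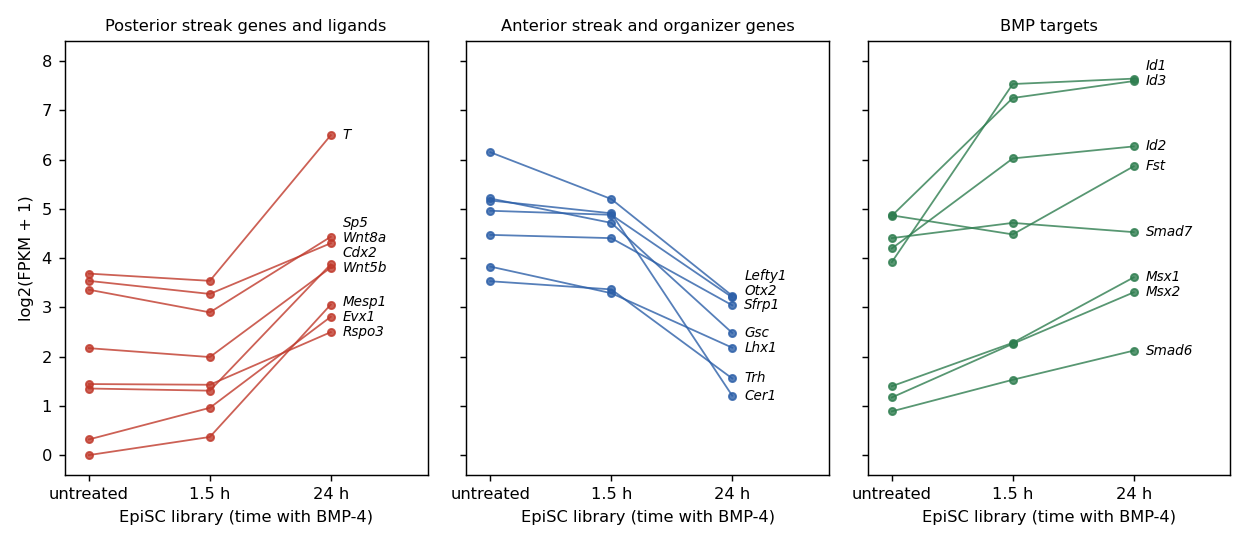
Lines join log2(FPKM + 1) of each gene in the untreated, 1.5 h and 24 h EpiSC libraries (1 library each). Posterior genes such as T stand high at 24 h (89.2 FPKM) and near the untreated level at 1.5 h, anterior genes such as Cer1 stand low at 24 h (1.31 FPKM), and Id1 stands high at both times (184 and 199 FPKM).

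The untreated library puts each treated one in relation to cells without the ligand, though it is shared by both relations and so gives no independent evidence. At 1.5 h 14 of 10618 genes (0.132%) stood at least 2-fold above untreated and 8 (0.0753%) below it. At 24 h 61 of 10641 (0.573%) stood above and 42 (0.395%) below. For T the 1.5 h library lay -0.15 from untreated and the 24 h library 2.8. For Id1 these values were 3.62 and 3.73.

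BMP targets differed in their course over the EpiSC libraries. Of 21 listed targets 14 were in the comparison. At 24 h 4 stood at least 2-fold higher (Fst, Msx1, Tbx3 and Msx2), 0 lower, and the median was 0.31. Tbx3 was under 1 FPKM at 1.5 h and entered only through the 24 h library, so its direction is tied to its entry. Id1, the prototype Smad target and an inhibitor of bHLH factors (chromosome 2, 152561987 to 152563146), stood at 14.1 (0.164 to 28.1) FPKM untreated, 184 (87.2 to 281) at 1.5 h and 199 (97.0 to 301) at 24 h. The difference between the treated libraries was 0.11, with both far above the untreated one. Id2 stood at 17.3, 64.0 and 76.0 FPKM (0.24) and Id3 at 28.0, 151 and 192 (0.34).

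Msx1, a homeobox gene of BMP-exposed tissue (chromosome 5, 38211730 to 38215824), stood at 1.64 FPKM untreated, 3.86 at 1.5 h and 11.2 at 24 h, a difference of 1.33. Its antisense gene Msx1os covers the same span and stood at 3.89, 9.05 and 26.6 FPKM (1.46). The libraries were directional, but the sources used here do not say whether counting used the strand, so reads of this pair may not be told apart. Msx2 (chromosome 13, 53562250 to 53568149) stood at 1.25, 3.79 and 8.88 FPKM (1.05). Both Msx genes thus had an intermediate level at 1.5 h, with intervals that overlap.

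Tbx3, a T-box repressor that is also on the naive pluripotency list, stood at 0.0636 FPKM untreated, 0.294 at 1.5 h and 1.86 at 24 h (1.15). Fst (Follistatin), a secreted Activin antagonist that also binds BMPs (chromosome 13, 115242470 to 115248938), stood at 28.2 (10.6 to 45.8), 21.3 (7.39 to 35.3) and 57.2 (27.0 to 87.4) FPKM (1.38). Unlike the Id and Msx genes, Fst at 1.5 h lay below its untreated level. The inhibitory Smads differed from each other: Smad6 stood at 0.850, 1.89 and 3.35 FPKM (0.59), and Smad7 at 20.2, 25.3 and 22.0 (-0.19). The remaining targets lay between -0.21 (Hey1, 5.43 and 4.57 FPKM) and 0.35 (Tsc22d1, 58.2 and 74.2), among them the pseudoreceptor gene Bambi (6.57 untreated, 6.44 and 7.92), Dusp9 (18.6, 19.5 and 23.8) and Gata2 (0.495, 1.52 and 2.00).

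None of the 15 BMP ligands, receptors, Smads and modulators compared stood 2-fold apart (median -0.05). The receptor genes Bmpr1a (20.3 and 21.7 FPKM), Bmpr2 (2.42 and 2.29) and Acvr1 (8.39 and 7.34), and Smad1 (10.8 and 11.8), Smad5 (8.8 and 7.69) and Smad4 (29.9 and 28.9) all lay within 0.2 of 0 on the log2 scale. Bmper, a secreted BMP modulator, was the highest of the list at 0.701 and 2.02 FPKM (0.83), and the antagonist Chrd the lowest. Bmp4 itself was under the mean, at 0.283 and 0.581 FPKM.

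**Figure D3:**
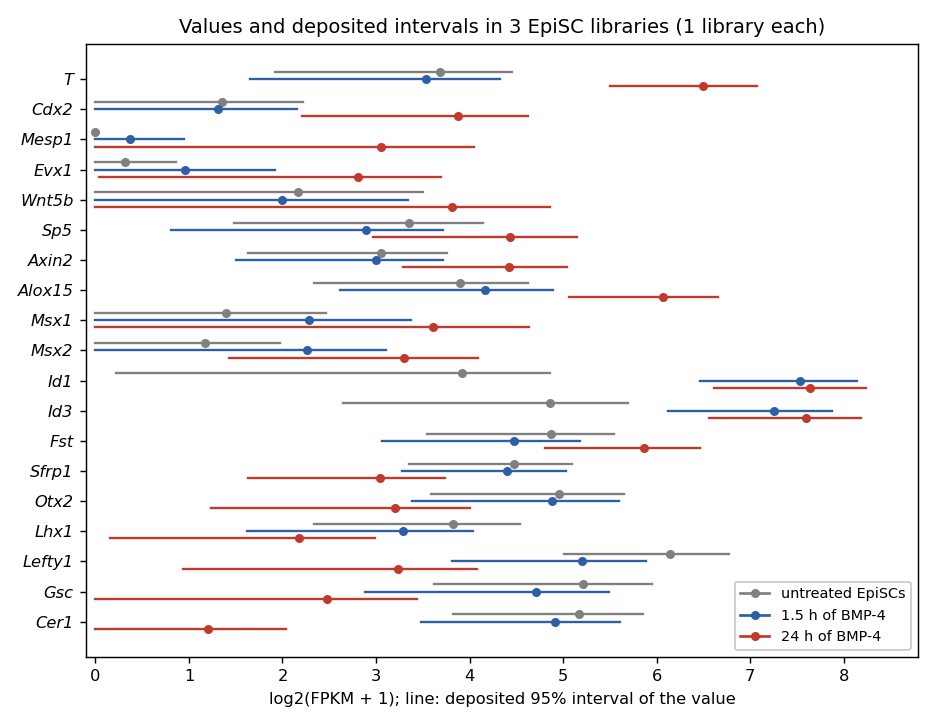
Points are log2(FPKM + 1) in the untreated (grey), 1.5 h (blue) and 24 h (red) libraries, and lines are the deposited 95% intervals. Of the genes drawn, T, Cdx2 and Alox15 are higher and Cer1 lower at 24 h than at 1.5 h with no overlap of the intervals, while the Id1 intervals at both times nearly coincide.

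In the Nodal and Activin pathway the secreted antagonists and targets stood apart and the transducers did not. Of 22 members 1 stood 2-fold higher (Fst) and 2 lower (Cer1 and Lefty1), with a median of -0.02. Nodal itself stood at 27.9, 21.3 and 31.6 FPKM in untreated cells, at 1.5 h and at 24 h (0.54), and Lefty2, an antagonist like Lefty1, at 5.19 and 2.82 between the treated libraries (-0.70). The co-receptor gene Tdgf1 (69.5 and 77.0 FPKM), the receptor gene Acvr1b (8.14 and 8.37), Smad2 (7.51 and 7.57), Smad3 (3.43 and 3.96) and the Smad partner Foxh1 (22.5 and 22.6) lay within 0.2 of 0.

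Among FGF pathway genes 2 of 22 stood lower, 0 higher, and the median was 0.13. Shisa2, which retains FGF and Wnt receptors inside the cell, stood at 2.83 FPKM at 1.5 h and 0.753 at 24 h (-1.13), and the ligand gene Fgf15 at 4.47 and 1.64 (-1.05). Shisa2 entered only through the 1.5 h library, so its direction is tied to its entry. Fgf5, a ligand of the primed epiblast, stood at 133 FPKM untreated, 96.2 at 1.5 h and 60.2 at 24 h (-0.67). The ERK phosphatase gene Dusp4 was at 45.7 and 82.5 FPKM (0.84), and the feedback genes Dusp6 (72.4 and 83.7), Spry2 (77.5 and 84.1) and Etv5 (47.5 and 52.6) lay between 0.12 and 0.21. Genes of this pathway therefore lay on both sides of 0, with ligands among the lowest and the highest.

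Pluripotency genes lay mostly within 2-fold. None of 18 core members was 2-fold apart (median -0.06): Pou5f1 (Oct4) stood at 1264 FPKM untreated, 1242 at 1.5 h and 1208 at 24 h (-0.04), and Nanog at 64.7, 64.8 and 81.4 (0.32). Sox2 stood at 77.2, 90.2 (46.8 to 134) and 55.5 (26.2 to 84.8) FPKM, a difference of -0.69, and its 24 h value was the lowest of the EpiSC libraries. Utf1, a chromatin-bound pluripotency factor, was at 66.9 and 41.5 FPKM (-0.68), and the forkhead gene Foxd3 at 6.17 and 2.71 (-0.95). Of the naive list 8 of 22 genes were in the comparison and 1 stood higher, Tbx3, which entered only through the 24 h library. Klf5 stood at 5.10 and 9.52 FPKM (0.79) and Klf2 at 1.73 and 2.06 (0.17). Of 24 primed epiblast genes 3 stood lower (Otx2, Tcf15 and Fgf15) and 0 higher, and 18 lay below 0 (median -0.17). Among them, the neural and epiblast factor Sox3 stood at 3.62 and 1.60 FPKM (-0.83), and the de novo methyltransferase gene Dnmt3b at 403, 394 and 288 FPKM over the libraries (-0.45). Of the 3 lower genes only Otx2 stood higher in untreated EpiSCs (30.1 FPKM) than in the ESC libraries (2.99 and 5.83). Tcf15 stood far higher in the ESC libraries, at 132 and 104 FPKM against 10.5 in untreated EpiSCs. Fgf15 was alike in both states, at 4.82 and 4.79 FPKM in ESCs and 4.88 in untreated EpiSCs.

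Germ cell genes were few, and some stood higher. Of 16 listed genes 8 were in the comparison, of which 2 stood higher and 0 lower, with a median of 0.56. Nanos3, an RNA-binding factor needed by primordial germ cells (chromosome 8, 86697632 to 86700451), stood at 0.721, 1.29 (0 to 3.88) and 5.70 (0 to 13.5) FPKM in untreated cells, at 1.5 h and at 24 h (1.55), on approximately 10.4 and 55.9 reads at 1.5 h and 24 h. Ifitm1, a membrane protein gene of early germ cells and posterior mesoderm, stood at 17.7, 15.0 and 31.9 FPKM (1.04). Tfap2c, a factor of germ cells and trophoblast, was at 6.11 and 12.7 FPKM (0.94), and Prdm1 (Blimp1), which starts the germ cell programme, at 0.903 and 2.00 (0.66). In contrast, Prdm14 was listed at 0 in all the EpiSC libraries, Dppa3 stood at 0.690 and 0.908 FPKM, and the receptor gene Kit at 1.63 and 0.906 (-0.46).

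Markers of other cell types that the culture could hold were checked beside these groups. Cdx2 and Tfap2c are also trophoblast genes. Of 12 trophoblast genes in the comparison 1 stood higher (Cdx2) and 1 lower (Krt7, a keratin gene at 3.54 and 1.00 FPKM, -1.18). Of the 12, 9 lay above 0 and 3 below, with a median of 0.46. A set of 8 trophoblast markers, all taken from the same list of 22 genes, is therefore no second check. It summed to 14.7 FPKM at 1.5 h and 20.4 at 24 h, with 4 of 8 at 1 FPKM or more at both times. Of these 8, Tpbpa was listed at 0 at both times, and Elf5 was listed at 0 at 1.5 h and stood at 0.0361 FPKM at 24 h. Gata3 stood at 0.503 and 0.873 FPKM, Plac1 at 0.586 and 0.562, Ascl2 at 2.34 and 3.74 and Esx1 at 1.57 and 1.49. Tfap2c was the largest contributor to that sum, at 6.11 and 12.7 FPKM, and rose by more than the sum did. The other markers together thus stood slightly lower at 24 h. The part of trophoblast cells in the results was not tested. Visceral and primitive endoderm markers summed to 5.23 and 3.92 FPKM, with Sox7 at 0 at 24 h and Afp and Amn at 0 at 1.5 h. These markers did not share a direction: Apoa1 stood at 2.48 and 0.355 FPKM, and Ttr, under the mean, at 0.0831 and 1.16. In that tissue's gene list 1 of 12 members stood lower, Apoa1 (-1.36), which entered only through the 1.5 h library. Blood and endothelial markers summed to 0.949 and 1.48 FPKM and none of the 7 reached 1 FPKM, with Hbb-bh1 and Lyl1 listed at 0 at both times. Fibroblast markers summed to 4.74 and 4.77 FPKM, of which only Thy1 reached 1 FPKM, and neural markers to 24.7 and 17.5, mostly Tubb3 (23.9 and 16.7).

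Epithelial and mesenchymal genes lay within 2-fold in each of 13 and 14 members. Cdh1 (E-cadherin) stood at 128 FPKM at 1.5 h and 137 at 24 h, Epcam at 72.5 and 81.5, and the keratin genes Krt8 (74.6 and 99.2, 0.41) and Krt18 (88.4 and 133, 0.59) somewhat higher. Of the mesenchymal genes, Fn1 (Fibronectin) was at 3.72 and 7.75 FPKM (0.89), Vim at 420 and 447 (0.09), Cdh2 (N-cadherin) at 19 and 16.2 (-0.22) and Zeb1 at 3.17 and 1.60 (-0.68). No cadherin named here stood 2-fold apart.

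Several receptors and ligands of migrating cells and vessels were among the higher genes; this set was put together after the values had been seen. Nrp2 (Neuropilin 2), a co-receptor for semaphorins and VEGF (chromosome 1, 62749891 to 62865266), stood at 2.13, 2.57 (0.395 to 4.74) and 10.3 (3.89 to 16.7) FPKM in untreated cells, at 1.5 h and at 24 h, a difference of 1.66. Nrp1, its paralog, was at 0.822, 0.574 and 2.48 FPKM (1.14). Apln, the ligand of the apelin receptor, stood at 5.66, 3.55 and 12.4 FPKM (1.56), while Aplnr, the receptor gene, stayed under the mean at 0.1 and 0.226 and Apela, its other ligand, was at 18.2 and 11.5 (-0.62). Ntn1, a netrin, was lower at 2.22 and 0.412 FPKM (-1.19). Of 16 such genes 3 stood higher and 1 lower, with a median of 0.00, and the plexins and semaphorins compared all lay within 2-fold. Nrp1 entered only through the 24 h library and Ntn1 only through the 1.5 h library, so their directions are tied to their entry.

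Alox15, a lipoxygenase of arachidonic acid and other fatty acids (chromosome 11, 70157649 to 70165533), stood at 13.9 FPKM untreated, 16.9 (5.14 to 28.7) at 1.5 h and 66.3 (32.4 to 100) at 24 h. The difference was 1.91, and the 24 h interval lay above the others. Ptgs1, a cyclooxygenase that starts prostanoid synthesis, stood at 0.727 and 2.63 FPKM (1.07), and the aldo-keto reductase gene Akr1c18 at 1.22 and 4.45 (1.29). With these 3 of 6 lipoxygenase and prostanoid genes stood higher and 0 lower, in a set also chosen after the values were seen. Of the 3, Ptgs1 entered only through the 24 h library, so its direction is tied to its entry. Aldh2, the mitochondrial aldehyde dehydrogenase, was the higher gene with the largest level at 24 h, at 59.2, 56.2 (25.5 to 86.9) and 123 (65.7 to 181) FPKM (1.12), and it was the only one of 10 aldehyde dehydrogenase genes to stand 2-fold apart.

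Of 12 imprinted genes 1, Igf2, stood at least 2-fold higher and 0 lower, with a median of 0.16. Igf2, an insulin-like growth factor expressed from the paternal allele (chromosome 7, 149836673 to 149856261), stood at 4.2, 3.64 and 9.02 FPKM in untreated cells, at 1.5 h and at 24 h (1.11). Within 2-fold, Phlda2, a maternally expressed growth inhibitor of the placenta, was at 29.9 and 57.8 FPKM (0.93), Peg3 at 16.4 and 29.4 (0.81) and Cdkn1c at 291 and 379 (0.38), while Snrpn (214 and 174 FPKM, -0.29) and Grb10 (68.5 and 55.8, -0.29) lay below 0. The antisense gene Peg3os, in the span of Peg3, stood at 29.9 and 63.4 FPKM (1.06). Among 24 cell cycle genes only the D-type cyclin gene Ccnd2 stood 2-fold apart, at 1.89, 2.51 (0.199 to 4.82) and 7.12 (2.35 to 11.9) FPKM (1.21), while its paralogs Ccnd1 (35.6 and 32.4 FPKM) and Ccnd3 (27.0 and 27.8) lay near 0.

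Further lower genes were on none of the developmental lists. Enpp3, an ectonucleotide pyrophosphatase (chromosome 10, 24493620 to 24556001), stood at 51.2, 46.1 (21.7 to 70.6) and 19.7 (7.31 to 32.2) FPKM in untreated cells, at 1.5 h and at 24 h (-1.18). The membrane-anchored metalloprotease gene Mmp25 stood at 31.5, 29.5 and 13.8 FPKM (-1.05), and the matrix protease gene Adamts9 at 7.85, 6.27 and 2.44 (-1.08). In all of these the 24 h library was the low one, and the 1.5 h library lay nearer to the untreated one. Klhl4, a Kelch-like gene on the X chromosome, was at 5.82, 5.54 and 1.34 FPKM (-1.48), Pga5, a pepsinogen gene, at 7.55, 6.82 and 1.2 (-1.83), and Eras, a Ras-like gene of ESCs, at 15.4, 13.5 and 6.21 (-1.004). Ramp3, which shares its span with Gm11978, was at 11.6, 12.1 and 4.98 FPKM.

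A few lower genes had been highest at 1.5 h. Tph1, which encodes tryptophan hydroxylase of serotonin synthesis, stood at 0.457 FPKM untreated, 4.19 (0 to 11.3) at 1.5 h and 0.512 (0 to 1.80) at 24 h (-1.78), so its untreated and 24 h levels were close together. Tcf15, a bHLH factor of the paraxial mesoderm that is on the primed epiblast list, stood at 10.5, 17.3 and 7.75 FPKM (-1.07). For both genes the intervals overlap between 1.5 h and 24 h. Eif3j1, described further on, was also highest at 1.5 h, as was Tmsb15l at 1.16, 7.25 and 2.48 FPKM. AF357399 stood at 298 FPKM at 1.5 h and was listed at 0 untreated and at 24 h. Each of these shares a span with other entries, and the sources used here do not say how reads were divided between them. Of 22 immediate early genes, which respond to growth factors within minutes, 0 stood 2-fold apart between 1.5 h and 24 h, with a median of 0.15. In untreated cells, at 1.5 h and at 24 h, Fos stood at 3.19, 3.21 and 4.29 FPKM and Egr1 at 6.49, 6.08 and 4.92. Atf3, at 7.33, 5.99 and 11.3 FPKM, had the largest difference of the list (0.81). A peak that ended before 1.5 h would not be seen in these libraries.

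Genes of general cell functions had list medians between -0.18 and 0.02. None of 81 ribosomal protein genes stood 2-fold apart, with differences from -0.30 to 0.23 and a median of -0.06, of which 71 lay below 0. None of 26 oxidative phosphorylation genes (median -0.04), 25 glycolysis and hypoxia genes (-0.07), 19 chaperone genes (-0.04) or 18 p53 targets (0.02) did so either. Of 27 sterol and fatty acid genes 24 lay below 0, by small amounts (median -0.17), for example the desaturase gene Fads2 at 59.4 and 40.0 FPKM (-0.56) and Sqle, a squalene epoxidase, at 58.0 and 45.9 (-0.33). The amino acid and stress genes of the Atf4 response had a median of -0.18, with 17 of 21 below 0 and the transporter gene Slc7a3 at 50.5 and 27.5 FPKM (-0.85). Of the signalling lists, Notch pathway genes had a median of -0.16, with 0 of 16 apart 2-fold, and ephrin and Eph genes 0.12, also with 0 of 16; there Efnb1 stood at 3.94 and 7.59 FPKM (0.80).

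Genes with near copies at the same locus need care. Eif3j1 and Eif3j2, paralogs of a translation initiation factor within the span chromosome 2, 121854316 to 121944122, stood the opposite way. Eif3j1 was at 0.135 FPKM untreated, 60.1 at 1.5 h and 0.0997 at 24 h (-5.79), and Eif3j2 at 99.5, 38.2 and 93.9 (1.28). Their span, with Spg11, summed to 109, 107 and 103 FPKM, so the sum stayed close while the division between the copies differed. In the same way Pisd-ps1 stood at 0.0350 and 7.09 FPKM (2.97) and Pisd-ps3 at 5.95 and 0.291 (-2.43), and their span (chromosome 11, 3024024 to 3093466, with Sfi1) summed to 7.11 and 8.69 FPKM. These genes, and H2-T9 (0.00434 and 2.1 FPKM) with its neighbour H2-T22 (2.55 and 1.40), are therefore uncertain. Among the 87 genes 2-fold apart, 22 share a span with another entry of the table.

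Precision followed the level. At a mean of 1 to 5 FPKM 1.39% of 3175 genes were 2-fold apart, at 5 to 20 0.766% of 3785, at 20 to 100 0.464% of 2801, and at 100 or more 0.114% of 880. The median distance from a 24 h value to its deposited upper bound was 111% of the value in the lowest class and 45.4% in the highest. The single gene 2-fold apart in the highest class is AF357399, a short entry inside the span of Rps16. It stood at 298 FPKM at 1.5 h and was listed at 0 at 24 h. Of the 55 higher genes 39 reached 5 FPKM in either library, and of the 32 lower genes 20 did, so the remainder rest on low levels.

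**Figure D4:**
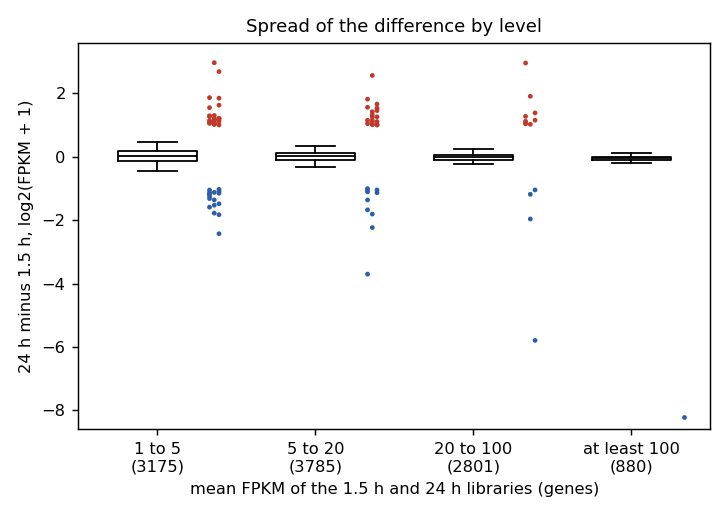
Boxes give the quartiles and whiskers the 5th and 95th percentiles of the difference of log2(FPKM + 1), 24 h minus 1.5 h, in 4 classes of mean FPKM; points are genes at least 2-fold higher (red) or lower (blue). The boxes narrow from the class of 1 to 5 FPKM (quartile range 0.31) to that of 100 or more (0.11).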

How the data were processed

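The deposited table holds FPKM per gene, made by the authors, and per the file headers each value has confidence bounds (95%) on either side and a status field. TopHat, Cufflinks, Picard and SAMtools and the mm9 build are named in the submitters' processing notes. The sources used here do not give the annotation, filters or scaling between libraries. An exact 0 can be a failed estimate, so such a gene is called listed at 0. Of 10689 genes averaging 1 FPKM or more, 4 were left out for status and 44 as small RNA names, among which 14 stood 2-fold higher and 16 lower. Differences of log2(FPKM + 1) were computed with Python 3.11.15, numpy 2.4.6 and pandas 2.3.3, and the script was tested on simulated data. With 1 library a group no test was made, and a call is 2-fold. The depth is approximate: reads were scaled from low values below 0.5 FPKM, of which 22.8% at 24 h were whole multiples of 1 read within 0.03. Loci are those of the table, counted from 1.

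The members and the 36 gene lists were chosen with earlier results of these data known, and 5 lists were added after the values were seen. Named genes are the 15 with the largest difference each way that reached 5 FPKM and were not predicted genes, up to 6 each way of each list described, genes of the BMP, streak and Nodal lists (a listed gene is not reported here), and genes with intervals apart; others (Dact1, Hoxd1, Aldh2 among them) were picked after their values were seen. Upstream sequences are RefSeq's (GRCm38.p6), matched by symbol. Other pseudocounts, filters, scalings and folds were tried.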

Additional observations from a re-analysis of the deposited data

How the results depend on the processing

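No paired analysis was possible because both times had a single library, so none could be left out either. The counts follow the pseudocount and the filter: instead of 55 higher and 32 lower genes, a pseudocount of 0.1 FPKM gave 107 and 70, a pseudocount of 5 gave 16 and 10, a mean of at least 5 FPKM gave 28 and 15, and a 1.5-fold call gave 197 and 145. With a pseudocount of 5, 26 of the 87 genes stayed 2-fold apart. That 0 of 87 turned direction in any setting was fixed beforehand. A pseudocount, filter or fold call cannot change the sign of a difference, and the rescalings were very small. Posterior streak genes counted as higher went from 8 to 5 with a pseudocount of 5, and anterior streak genes counted as lower from 7 to 12 with 0.1. Leaving out genes that share a locus span, chosen after the data were seen, gave 40 and 25, and 1 lower gene with intervals apart instead of 2. The median over all genes moved from 0.00102 to -0.00316 with a mean of at least 5 FPKM. Rescaling by the upper quartile or the median ratio gave 55 and 32 again, but both factors were 0.999, so the counts could hardly move. Values below 1 FPKM rest on few reads, and 25 of the 87 genes had such a value. Each of these 25 entered only through the library where it stood higher, so its direction is tied to its entry.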
